A study of Mus musculus with 298 samples.

Results

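Somatostatin (Sst) and its receptors Sstr1, Sstr2, Sstr3 and Sstr4 were followed as 5 named genes of the 22800 in the count table. They were chosen by name and not ranked by their values, though earlier results of these data were known. The table holds neurons of the suprachiasmatic nucleus (SCN), the clock in the mouse hypothalamus, with 1 library per cell. Each cell was recorded with a patch pipette in a brain slice, and its cytoplasm was then drawn into the pipette and sequenced. The mice lived in a cycle with 12 h of light, and slices were cut near ZT0 for day cells and near ZT12 for night cells (ZT counts hours from lights on). Cells were labelled by time, by firing (active, silent or depolarized) and by cFOS (cFOS+ or cFOS-), the product of an activity-induced gene. The day cells were 51 cFOS+ and 27 cFOS- active, 17 cFOS+ and 32 cFOS- silent, and 2 cFOS+ and 7 cFOS- depolarized ones. The night cells were 41 cFOS+ and 46 cFOS- active, 35 cFOS+ and 35 cFOS- silent, and 3 cFOS+ and 2 cFOS- depolarized ones. No strain, age, sex or genotype of the mice is stated in the labels, which also name no mouse or slice for any cell.

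Somatostatin is a secreted neuropeptide, cut from a prohormone and stored in dense-core granules. Its receptors couple to inhibitory G proteins, which lower cyclic AMP and open the GIRK potassium channels, so that a cell carrying a receptor tends to be quieted. In the SCN, Sst marks a scattered set of neurons that differ from the better-known Vip and Avp cells, and elsewhere in the forebrain it marks a class of GABA interneurons. The Sst gene is the classic target of the factor CREB, which binds the cyclic AMP response element (CRE).

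Each group was treated as 1 sample, because cells of a slice are not replicates. No test between groups was made, and the intervals below are exact 95% intervals that cover counting error only. Levels are CPM, the reads of a gene scaled to the same total in every cell. A cell at 100 CPM or more was counted as carrying the gene; 10 CPM was used as a lower limit for the receptors. Cells had 3187057 to 25535298 reads (median 6320667) and 2341 to 8420 detected genes. The cells S70 and S71, labelled silent at night with opposite cFOS labels, had nearly the same counts (correlation 0.9995) and were counted as 1 cell without a cFOS label, which left 297 cells. The 8 neuron markers together reached 100 CPM in 296 of the 297 cells, the 15 SCN peptides in 84.5% of them and the 8 SCN transcription factors in 89.6%. The 11 microglia markers together reached 100 CPM in 111 cells.

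Sst (ENSMUSG00000004366.4) lies on the minus strand of chr16:23889573-23890958 (GRCm38, GENCODE M21). The receptors have a gene each, Sstr1 on the plus strand of chr12:58211772-58214444, Sstr2 on the plus strand of chr11:113619342-113626028, Sstr3 on the minus strand of chr15:78537008-78544685 and Sstr4 on the plus strand of chr2:148395344-148396767. Sstr2 overlaps Slc39a11 in the annotation, and whether the authors counted by strand is not stated, so a read in the overlap could belong to either gene. Promoter windows from 250 bases before to 50 after the RefSeq start (GRCm38.p6) were found for Sst, Sstr2, Sstr3 and Sstr4, 5 windows in all. The full CRE, TGACGTCA, which reads the same on both strands, stood in 2 of these 5 windows, those of Sst and Sstr2, and in 588 of 32851 promoter windows (1.79%). The Sst match was foreseen, since Sst is the classic CREB target named above, so only that of Sstr2 was open. The stretch around each CRE is shown because Sst and Sstr2 are the pair found together in cells below. A control shared by both genes was not tested. The CRE is in capitals and each stretch reads 5′ to 3′ on the strand of its gene.
Sst, chr16:23890874-23890903: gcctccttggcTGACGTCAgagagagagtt
Sstr2, chr11:113619258-113619287: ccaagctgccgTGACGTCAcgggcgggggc
The element began 48 bases before the RefSeq start of Sst and 58 bases before that of Sstr2. GENCODE M21 begins Sst 114 bases further upstream than RefSeq, so the Sst element falls inside the first exon in that annotation. The shorter motif TGACG, searched on both strands and contained in the full element, was in 3 of the 5 windows (Sst, Sstr2 and Sstr3) and in 20.8% of all. The E-box CACGTG, the letters bound by the clock factors CLOCK and BMAL1, was in 1 window, of Sstr3, and in 7.15% of all. A match is a description of the letters and not a measured binding site.

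Sst was carried by few cells, and strongly. Of 297 cells, 223 had no Sst read, 43 had reads under 10 CPM, 7 lay between 10 and 100 CPM, 8 between 100 and 1000 CPM and 16 at 1000 CPM or more. The 24 cells at 100 CPM or more, called Sst cells below, were 8.08% of all (5.25 to 11.8%); the others are the 297 less these. Just outside the limit the nearest cell had 93.7 CPM, and just inside it the nearest had 138.8 CPM. The median of the 24 was 2222 CPM and the highest, a day active cFOS- cell (S485), had 20902 CPM, or 156697 reads. This one cell gave 22.9% of all Sst reads, and the 5 highest gave 66.8%. A pooled Sst level is therefore mostly the level of a few cells, and the share of cells is given first below.

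**Figure D1:**
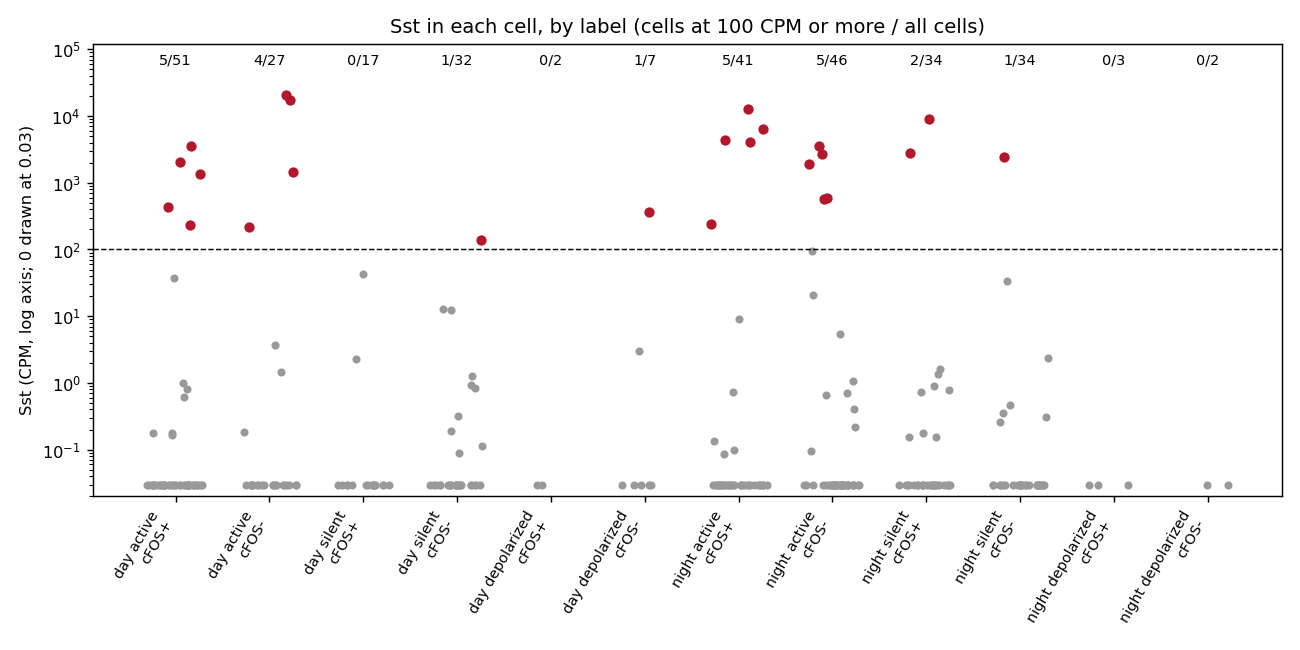
Sst in each of the cells with a cFOS label, in CPM on a log axis with 0 drawn at 0.03, by time, firing and cFOS label; red points are cells at 100 CPM or more, the dashed line marks 100 CPM, and the numbers give cells at or above it out of all cells of the group. Most cells sit at 0 in every group, and the red points are mainly in the 4 active groups.

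The receptors were rarer than the ligand and their levels lower. Sstr2, the receptor most often found, had a read in 27 cells, reached 10 CPM in 11 and 100 CPM in 7 (2.36%, 0.953 to 4.80%), with a highest value of 400.3 CPM. The members of that set just inside and outside 100 CPM had 137.0 and 85.1 CPM. Sstr1 had a read in 14 cells, reached 10 CPM in 8 and 100 CPM in 1, at 174.5 CPM. Sstr3, a receptor of neuronal cilia, had a read in 6 cells and reached 10 CPM in 5, the highest at 85.6 CPM. No cell reached 100 CPM of Sstr3, which allows a share of up to 1.01%. Sstr4 had a read in 3 cells, at most 3 reads, so it was not detectable at this depth in the other 294. Sstr5, the remaining receptor of the family and not one of the 5 genes chosen, reached 10 CPM in 5 cells and 100 CPM in 4. Cort, which encodes the related peptide cortistatin, had 1 read in 1 cell, S205, itself an Sst cell. At least 1 of the 5 receptors reached 10 CPM in 26 of 297 cells (8.75%).

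Per kilobase of exon, pooled over all cells, the order of levels was Sst at 470.6 CPM per kb, Sstr2 at 2.67, Sstr5 at 1.23, Sstr1 at 0.694, Sstr3 at 0.232 and Sstr4 at 0.00174. No counting intervals of neighbours in that order overlapped, but each receptor's sum rests on a handful of cells. In a single cell the highest value per kb was 28991 CPM for Sst, 186.8 for Sstr2, 85.3 for Sstr1 and 19.8 for Sstr3.

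Sst cells were mostly active cells. Of the 24, 19 were active, 4 silent and 1 depolarized; 11 were day and 13 night cells; 12 were cFOS+ and 12 cFOS-. Among active cells 19 of 165 carried Sst (11.5%, 7.08 to 17.4%), and among silent cells 4 of 118 (3.39%, 0.931 to 8.45%). The difference was 8.13 percentage points (1.39 to 14.5, counting error only). Among all 9694 genes compared this way, 3.67% had a share at least 2-fold higher in active cells. The higher share among active cells was present in each of 4 subsets. It was 5 of 51 against 0 of 17 in day cFOS+ cells, 4 of 27 against 1 of 32 in day cFOS- cells, 5 of 41 against 2 of 34 in night cFOS+ cells and 5 of 46 against 1 of 34 in night cFOS- cells. By time, the active share was the same to the first decimal, 9 of 78 by day (11.5%) and 10 of 87 by night (11.5%), against 1 of 49 silent day cells (2.04%) and 3 of 69 silent night cells (4.35%).

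The size of the Sst difference between active and silent cells depended on which cells were used. Cells are numbered in the titles, and in those numbered below the median the shares were 5 of 80 active and 3 of 60 silent cells, a difference of 1.25 points. In the higher numbers they were 14 of 85 and 1 of 58, a difference of 14.7 points. The labels do not say what the numbers stand for. On the pooled scale Sst was at 519.9 CPM in active and 122.02 CPM in silent cells, a log2 ratio of 2.08 (on the log2 scale with 1 CPM added), with 0.80 in the lower and 7.85 in the higher numbers. Genes with at least 2-fold higher pooled CPM in active cells were 7.21% of 11821, and genes at least 2-fold lower 6.28%. In the active cells the lowest, median and highest values were 0, 0 and 20902 CPM, and in the silent cells 0, 0 and 8908 CPM, so the groups overlapped from end to end. The 3 silent cells at 1000 CPM or more, S253-2, S255 and S257, were all night cells with neighbouring numbers. The microglia markers together reached 100 CPM in 35.8% of active and 38.1% of silent cells; without the cells at that level the difference in Sst share was 9.95 points.

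**Figure D2:**
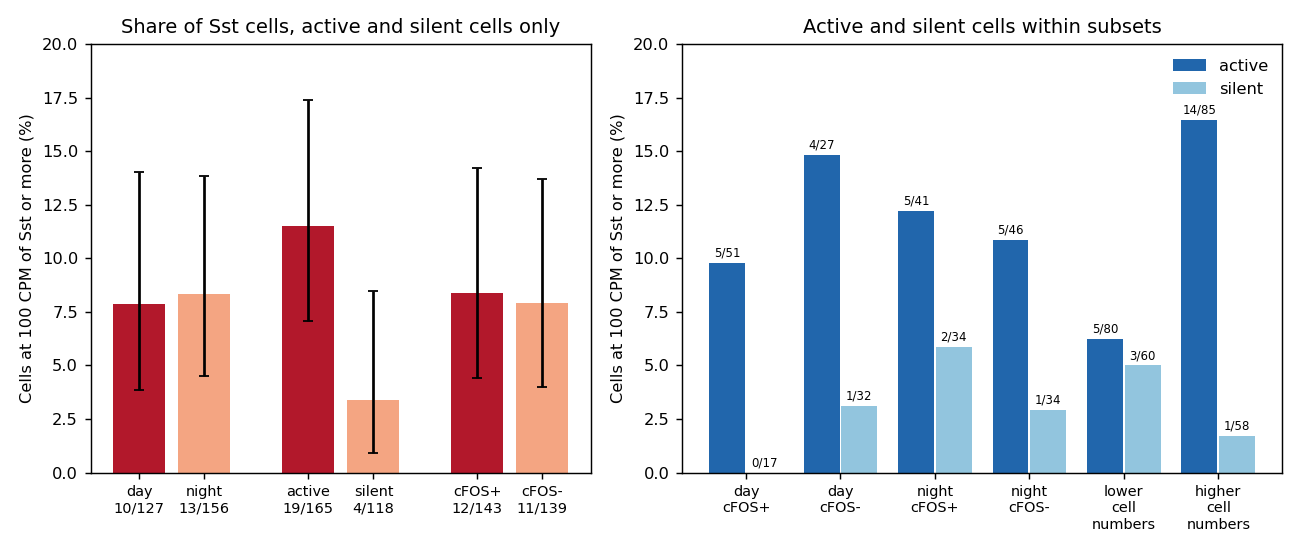
Left, share of active and silent cells at 100 CPM of Sst or more by time, firing and cFOS label, with exact 95% intervals for counting error. Right, the same share in active and silent cells within the 4 subsets by time and cFOS and within the lower and the higher cell numbers; the active bar is higher in each, by 1.25 points in the lower and 14.7 points in the higher numbers.

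Time and cFOS label separated the Sst cells little. By day 10 of 127 cells carried Sst (7.87%, 3.84 to 14.0%) and by night 13 of 156 (8.33%, 4.51 to 13.8%), a difference of -0.46 points (-7.28 to 6.76). The pooled level was 403.2 CPM by day and 311.99 CPM by night, a log2 ratio of 0.37. Without the top cell of each group this was -0.21, and only 1 of the 4 subsets had the same sign, so no direction is given. For comparison, 7.00% of 11856 genes were at least 2-fold higher by day and 7.44% at least 2-fold lower. Among cFOS+ cells 12 of 143 carried Sst (8.39%, 4.41 to 14.2%) and among cFOS- cells 11 of 139 (7.91%, 4.02 to 13.7%), a difference of 0.48 points (-6.56 to 7.47). Pooled Sst was at 312.96 CPM in cFOS+ and 396.9 CPM in cFOS- cells, a log2 ratio of -0.34 that became 0.12 without the top cells. For this contrast 5.74% of 11828 genes were at least 2-fold higher and 8.29% at least 2-fold lower in pooled CPM, and 2.90% of 9682 had a share at least 2-fold higher. Of the 14 depolarized cells 1 carried Sst, at 370.5 CPM.

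Ordered by share, the 8 groups of active and silent cells ran from day active cFOS- (4 of 27, 14.8%) through night active cFOS+ (12.2%), night active cFOS- (10.9%), day active cFOS+ (9.80%), night silent cFOS+ (5.88%), day silent cFOS- (3.13%) and night silent cFOS- (2.94%) to day silent cFOS+ (0 of 17, which allows up to 17.6%). The 4 active groups came first, and the intervals of all neighbours in that order overlapped.

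Receptor cells were spread differently over the labels. Sstr2 was at 100 CPM in 0 of 127 day cells, which allows a share of up to 2.36%, and in 7 of 156 night cells (4.49%, 1.82 to 9.03%), a difference of -4.49 points (-9.03 to -0.576). A share at least 2-fold lower by day was seen for 4.92% of 9694 genes, each carried by at least 10 cells. Sstr2, carried by 7, is not among these genes, so that percentage does not tell how rare its difference is. At 10 CPM there was 1 day cell, the silent cFOS- cell S58 at 85.1 CPM, and 10 night cells. Pooled, Sstr2 was at 0.659 CPM by day and 10.3 CPM by night, a log2 ratio of -2.76, and it was lower by day in all 4 subsets (from -3.73 to -2.10).

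The night cells with Sstr2 sat close together in the numbering. Of the 11 cells at 10 CPM, 7 were among the 53 cells numbered from S202 to S298, of which 46 were night and 7 day cells. Leaving those numbers out, which was an alternative added after the values were seen, left 1 of 120 day and 3 of 115 night cells at 10 CPM, and 0 against 2 at 100 CPM, a difference of -1.74 points. Microglia markers moved with time as well. All 11 were higher by day, 9 of them at least 2-fold, beside 7.00% of all genes. Their summed level was 0 to 27777 CPM by day (median 57.9) and 0 to 19810 CPM by night (median 3.14). No marker was at 0 in either group. Of 11 astrocyte markers measured, 9 were higher by day, 7 of them at least 2-fold, with a summed level of 0 to 12982 CPM by day (median 278.1) and 0 to 3393 CPM by night (median 168.2). Without the cells at 100 CPM of the microglia markers the Sstr2 log2 ratio was -3.61, and with 5 CPM added in place of 1 it was -1.43. The part of the astrocyte markers was not tested.

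By firing, Sstr2 reached 10 CPM in 3 active and 8 silent cells and 100 CPM in 3 of 165 and 4 of 118, a difference of -1.57 points (-6.84 to 2.63). Its pooled log2 ratio of -0.76 became 0.09 without the cells with microglia markers and 2.16 in the higher cell numbers, so it had no stable direction. By cFOS label the shares were 4 of 143 and 3 of 139, a difference of 0.64 points (-3.86 to 5.18). Sstr1 reached 10 CPM in 3 active and 5 silent cells, and in 2 cFOS+ and 6 cFOS- cells. Sstr3 reached 10 CPM in 5 of 165 active cells (3.03%) and in 0 of 118 silent cells, where the exact interval reaches 3.08% and so includes the active share. The 5 Sstr3 cells were S335 by day at 85.6 CPM and, by night, S251 at 71.5, S309 at 42.1, S246 at 33.6 and S422 at 21.5 CPM. None of the receptors was at 10 CPM in a depolarized cell.

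The receptors were counted in cells grouped by peptide, without a test of the differences. Of the 297 cells, 24 carried Sst, 55 Vip (vasoactive intestinal peptide, of the light-receiving core), 102 Avp (vasopressin, of the shell) and the rest none of these at 100 CPM. At that limit no cell carried Sst with Vip, 3 carried Sst with Avp, and 7 carried Vip with Avp. Vip was thus in 0 of 24 Sst cells and 20.1% of the others, and Avp in 12.5% and 36.3%. Under the limit, the Sst cells S482 and S387 had 76.9 and 10.3 CPM of Vip. At 10 CPM, Sstr2 was in 5 of the 24 Sst cells (20.8%, 7.13 to 42.2%), in 0 of the 55 Vip cells, which allows up to 5.45%, in 1 of the 102 Avp cells and in 5 of the cells with none of them (3.97%). At 100 CPM it was in 4 of 24 Sst cells (16.7%, 4.74 to 37.4%) and in 3 of the other cells (1.10%, 0.227 to 3.18%). The Sst cells with Sstr2 were S527 (400.3 CPM of Sstr2 and 4366 of Sst), S255 (328.5 and 2428), S287 (178.4 and 2691), S257 (154.0 and 8908) and S253-2 (21.2 and 2827). All 5 were night cells with at least 2428 CPM of Sst, 2 of them active and 3 silent, and 4 of the 5 were numbered from S202 to S298. Among Sst cells outside those numbers Sstr2 reached 10 CPM in 1 of 19, and among other cells outside them in 3 of 225.

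Some Vip cells carried Sstr1 or Sstr3. Sstr1 was at 10 CPM in 4 of 55 Vip cells (7.27%, 2.02 to 17.6%): S426 at 74.6 CPM, S427 at 65.4, S430 at 22.3 and S248 at 14.0 CPM. It was at a like share in Sst cells, 2 of 24 (8.33%), S255 at 174.5 CPM and S94 at 20.5 CPM. Sstr3 was at 10 CPM in 3 of 55 Vip cells (5.45%, 1.14 to 15.1%), in no Sst cell, in no Avp cell and in 2 cells with none of the peptides. Any of the 5 receptors was at 10 CPM in 7 of 24 Sst cells (29.2%, 12.6 to 51.1%), 7 of 55 Vip cells (12.7%, 5.27 to 24.5%), 2 of 102 Avp cells (1.96%, 0.238 to 6.90%) and 11 of the cells with none of these peptides (8.73%, 4.44 to 15.1%). A pair of cells carried more than 1 receptor. S255 had Sstr1, Sstr2 and Sstr5 (344.8 CPM) together with Sst, Trh at 7895 CPM and the glutamate transporter gene Slc17a6 at 420.5 CPM, and S295 had Sstr2 at 200.5 and Sstr5 at 114.9 CPM.

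**Figure D3:**
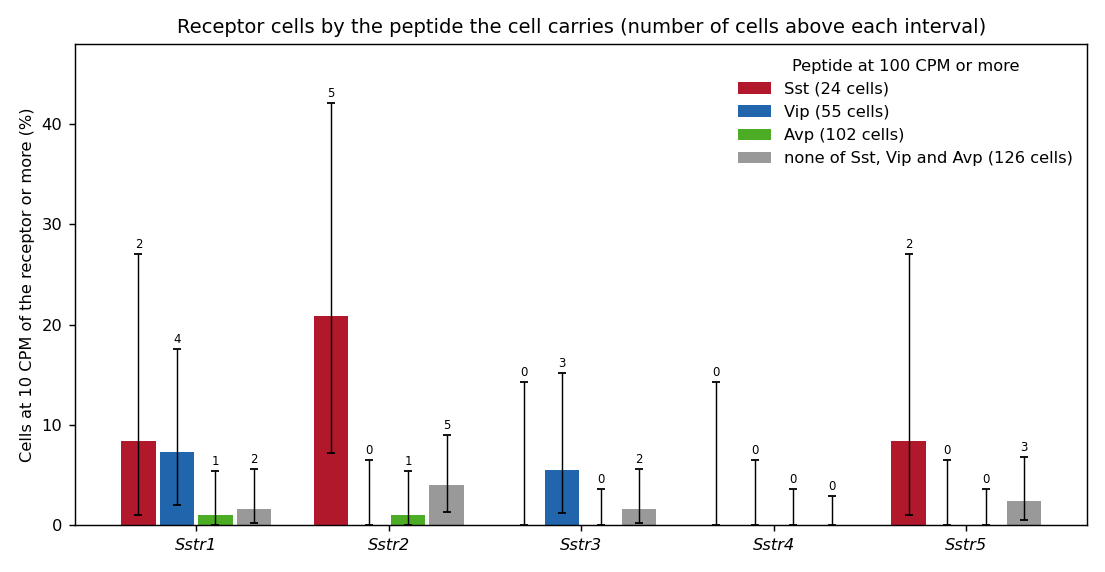
Share of cells at 10 CPM or more of each receptor (vertical axis, percent) in cells carrying Sst, Vip or Avp at 100 CPM or in none of these, with exact 95% intervals for counting error and the number of cells above each; 10 cells count in more than 1 class by the overlaps given in the text. Sstr2 has 5 Sst cells and 0 Vip cells, Sstr1 and Sstr3 have 4 and 3 Vip cells, and Sstr4 has none.

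Most Sst cells carried Gad1 or Gad2, as did most other cells, and most peptides of the SCN had a lower share in them. Gad1 or Gad2, the enzymes that make GABA, were at 100 CPM in 23 of 24 Sst cells and in 240 of the others (87.9%). Gad1 alone was in 20 of 24 (83.3%) and 227 of the others (83.2%), Gad2 in 16 of 24 (66.7%) and 143 of the others (52.4%). Slc32a1, the vesicular GABA transporter, was in 0 of 24 and 10 of the others. Slc17a6, of glutamate neurons, was in 3 of 24 (12.5%), which were S94, S255 and S396, and in 25 of the others (9.16%). S94 had no read of Gad1 or Gad2, and S255 and S396 had no read of Gad1. Of 12 SCN peptides carried by at least 10 cells, 10 had a lower and 2 a higher share in Sst cells. Over all 9817 genes carried by at least 10 cells, 45.3% had a higher share in Sst cells, and the counts for the lists below stand beside that share. Their summed level, with Sst itself not counted, reached 100 CPM in 15 of 24 Sst cells (62.5%) and 86.4% of the others, with medians of 205.1 and 2799 CPM. Nms (neuromedin S) was in 1 of 24 Sst cells (4.17%) and 111 of the others (40.7%), and Prok2 (prokineticin 2) in 0 of 24 and 36 of the others (13.2%). Penk (enkephalin) stood at about the same share, 5 of 24 (20.8%) and 61 of the others (22.3%), reaching 6662 CPM in S465, 5483 in S463 and 3739 in S529. Single Sst cells carried Npy (S409, 5756 CPM) and Trh (S255).

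The transcription factors of the SCN gave a similar count. Of 8, 7 had a lower and 1 (Tshz2) a higher share in Sst cells, and Rora was at 100 CPM in 4 of 24 (16.7%) and 140 of the others (51.3%). The 7 include Six6, a regional factor of the SCN, at nearly the same share in both, 4 of 24 (16.7%) and 49 of the others (17.9%). Of 11 genes of forebrain Sst interneurons measured in enough cells, 8 had a higher and 3 a lower share. Calb2 (calretinin) was in 13 of 24 (54.2%) and 90 of the others (32.97%) and Grin3a in 5 of 24 and 17 of the others (6.23%). Among the 3 lower ones were Chodl, in 2 of 24 (8.33%) and 108 of the others (39.6%), and Calb1 (calbindin), in 9 of 24 (37.5%) and 59.3% of the others. The remaining one was Satb1, in 1 of 24 (4.17%) and 18 of the others (6.59%). Lhx6, Sox6 and Nkx2-1, also on the list, were carried by too few cells to be among the 11. Lhx6 reached 100 CPM in no cell, which allows a share of up to 1.01% of all cells, Sox6 in 0 of 24 and 1 of the others, and Nkx2-1 in 0 of 24 and 3 of the others.

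Of 10 genes of prohormone processing measured, 7 had a lower and 3 a higher share, beside 45.3% of all genes with a higher share. The 7 include Chgb, a granule protein, at 75.0% and 75.5%. Pcsk2, a convertase that cuts prohormones, was in 2 of 24 Sst cells (8.33%, 1.03 to 27%) and 148 of the others (54.2%, 48.1 to 60.2%). Scg5, which encodes the chaperone of that convertase, was in 24 of 24 and 250 of the others (91.6%), and Cpe in 21 of 24 (87.5%) and 266 of the others (97.4%). In the signalling chain below the receptors, the alpha subunits of the inhibitory G proteins had a lower share in 4 of 5 genes and a higher one in 1 (Gnai3, 6 of 24 and 38 of the others). The G beta subunits had 3 lower and 1 higher (Gnb4, 8 of 24 and 40 of the others). Both GIRK genes measured, Kcnj3 (1 of 24 and 14 of the others) and Kcnj9 (2 of 24 and 28 of the others), were lower. Adenylyl cyclases were 3 and 3, desensitization genes 3 lower and 2 higher, and regulators of the Sst gene 5 lower and 2 higher of 7, with Creb1 at 2 of 24 and 20 of the others. The signalling lists and the Sst regulators had medians of the phi coefficient (defined below) from -0.058 to 0.014, beside -0.0077 over all genes.

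The same lists were compared between the labels. Between active and silent cells the median log2 ratio of pooled CPM was 0.39 for 5 inhibitory alpha subunits, 0.13 for 4 beta subunits, 0.040 for 4 GIRK channels, 0.13 for 7 adenylyl cyclases, 0.18 for 5 desensitization genes, 0.21 for 3 tyrosine phosphatases and 0.30 for 7 Sst regulators, beside 0.0072 over all genes. Of these 35 genes 4 were at least 2-fold higher in active cells and 1 at least 2-fold lower, beside 7.21% and 6.28% of all genes. Atf1, a relative of CREB, was at 50.9 CPM in active and 18.3 CPM in silent cells, higher in all 4 subsets. Between day and night, 2 of 34 genes were at least 2-fold higher by day and 2 at least 2-fold lower, close to the 7.00% and 7.44% of all genes. The lists farthest from the median of all genes (-0.025) were the 3 tyrosine phosphatases at -0.95 and the 3 GIRK channels measured at -0.65. Ptpn11, a phosphatase below many receptors, was at 21.4 CPM by day and 42.2 CPM by night, lower by day in all 4 subsets. Its log2 ratio in the subsets ran from -2.43 to -0.024, the last close to no difference. Among the adenylyl cyclases Adcy6 was higher by day (55.2 and 26.3 CPM, in 3 of 4 subsets), while Adcy2 (99.3 and 189.7 CPM, in all 4) and Adcy7 (12.5 and 25.6 CPM, in 3) were lower by day.

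Between the cFOS labels, 1 of 35 genes was at least 2-fold higher in cFOS+ cells and 5 were at least 2-fold lower, beside 5.74% and 8.29% of all genes. The median log2 ratio was -0.68 for the tyrosine phosphatases and -0.43 for the Sst regulators, beside -0.044 over all genes. Creb1, which encodes CREB, was at 14.1 CPM in cFOS+ and 39.4 CPM in cFOS- cells, lower in all 4 subsets. It was at 33.2 CPM in active and 21.6 CPM in silent cells and at 35.4 CPM by day and 22.5 CPM by night, higher in all 4 subsets for each. The log2 ratio of Creb1 in the subsets ran from 0.50 to 1.58 by firing and from 0.095 to 1.66 by time. Adcy2 was lower in cFOS+ cells (96.5 and 204.0 CPM, in all 4 subsets). Microglia markers together reached 100 CPM in 30.1% of cFOS+ and 43.9% of cFOS- cells, and their part in these values was not tested.

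Genes found together with Sst were ranked by phi, the correlation between carrying the gene and carrying Sst at 100 CPM, over 297 cells. It is a description without a test, since the cells share slices and depth. Of 9817 genes, 39 (0.397%) had a phi of at least 0.2 and 4 of at least 0.3. The gene with the highest phi was Qrfpr, the receptor for the neuropeptide QRFP, at 0.49. It was carried by 8 of 24 Sst cells (33.3%, 15.6 to 55.3%) and by 2 of the others (0.733%, 0.0888 to 2.62%), at a median of 544.7 CPM in the 8. They were S172 at 842.0, S205 at 796.1, S533 at 742.2, S287 at 562.05, S485 at 527.3, S527 at 516.0, S257 at 297.6 and S389 at 116.2 CPM. These 8 cells all lay among the 11 highest in Sst. They came from day and night, and 7 were active. Qrfpr was carried by 10 cells in all, the least needed to be ranked, so it entered the ranking only through its Sst cells.

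The other 11 genes named by the rule had phi from 0.24 to 0.33. Ecel1, an endopeptidase of neurons, was in 13 of 24 (54.2%) and 35 of the others (12.8%), at a median of 836.7 CPM in the 13. Rgs4, which speeds the shut-off of inhibitory G proteins, was in 14 of 24 (58.3%) and 55 of the others (20.1%). Rem2, a small GTPase that restrains calcium channels, was in 12 of 24 (50%) and 38 of the others (13.9%), and Tmem35, an assembly factor of nicotinic receptors, in 12 of 24 and 35 of the others. Cntn4, a contactin of axons, was in 7 of 24 (29.2%) and 8 of the others (2.93%), and the RNA-binding gene Elavl2 in 10 of 24 (41.7%) and 25 of the others (9.16%). Gfra2, the receptor for neurturin, was in 9 of 24 and 24 of the others. Pcsk4 (8 of 24 and 13 of the others), a convertase like Pcsk2, Rbm22 (5 and 5), Sulf2 (7 and 15) and Bloc1s2 (8 and 20) completed the set. Each had a higher share among Sst cells by day, by night and in the lower and the higher cell numbers, as the rule required. Cntn4 and Rbm22 were in fewer than 10 of the other cells, so they too entered the ranking only through the Sst cells.

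Of these 12, 7 reached a phi of 0.2 when 10 CPM was the limit and 10 did so without the cells with microglia markers. In these settings 4 and 3 of the 12 stayed among the top 12. With no minimum number of cells all 12 reached 0.2, and 6 stayed among the top 12. At 1000 CPM, with 16 Sst cells, 8 of the 12 genes, Qrfpr among them, were carried by no cell and had no phi; of the other 4, 2 had a positive phi (Ecel1 and Rgs4). With the Spearman correlation of CPM in place of phi all 12 were positive and 4 were at 0.2 or more, Qrfpr highest at 0.35. No receptor was carried by 10 cells at 100 CPM, the least the rule allowed, so no genes are named beside one. The phi of Sstr2 with Sst, over its 7 cells, was 0.28.

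The genes with the lowest phi were looked up after the values were seen. Dlk1, a ligand-like membrane protein widely carried in the SCN, was in 2 of 24 Sst cells (8.33%, 1.03 to 27%) and 186 of the others (68.1%, 62.2 to 73.6%), a phi of -0.34. The 2 were S463 (691.4 CPM) and S466 (1327 CPM), both night active cells that also carried Penk. After Dlk1 came Pcbp1 (8 of 24 and 213 of the others), Cnbp (16 of 24 and 93.8% of the others), Pcsk2, Ptprn (11 of 24 and 217 of the others) and Nms.

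**Figure D4:**
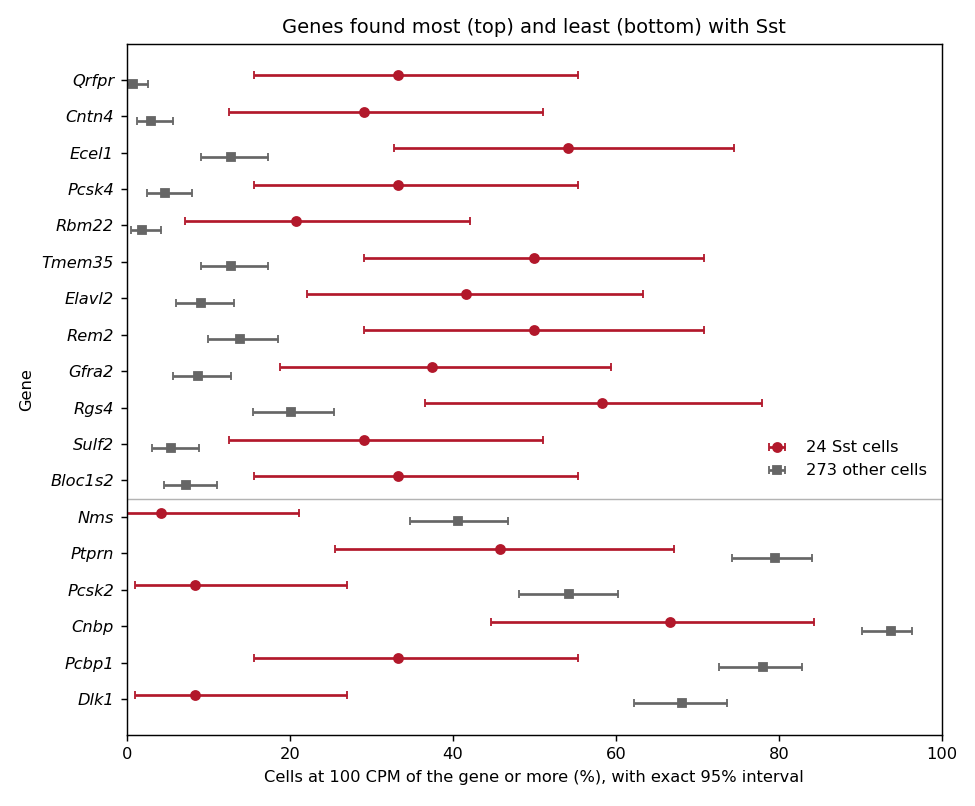
Share of cells at 100 CPM or more of each gene (horizontal axis, percent) in the 24 Sst cells (circles) and the other cells (squares), with exact 95% intervals for counting error. Qrfpr at the top is in 33.3% and 0.733% of cells, and Dlk1 at the bottom in 8.33% and 68.1%.

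**Figure D5:**
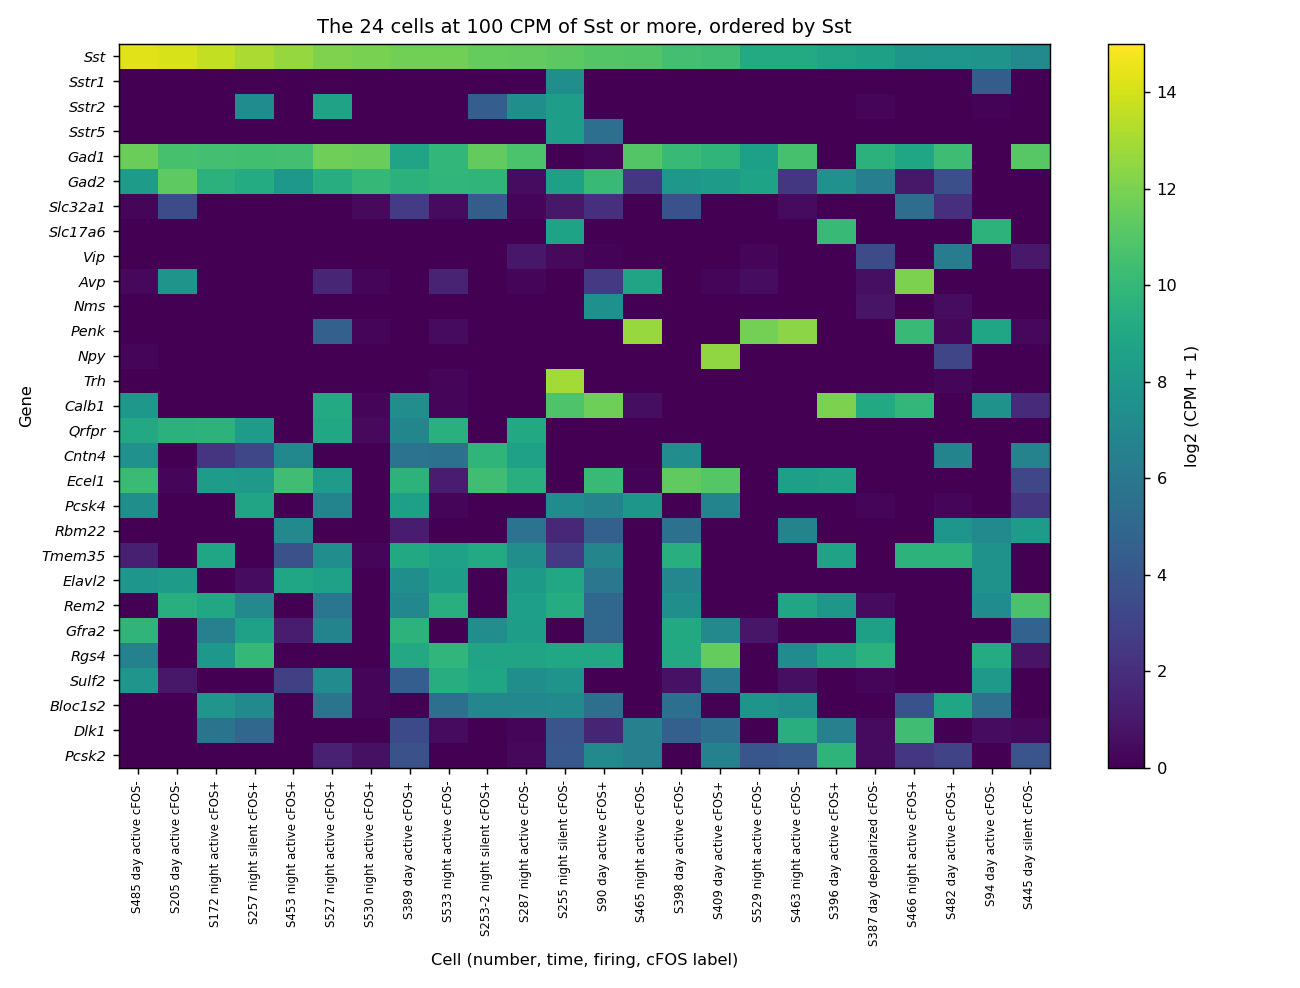
The 24 Sst cells in columns, ordered by Sst with their number and labels, and genes in rows, coloured by log2 of CPM with 1 added. Qrfpr is filled mainly among the 11 cells with most Sst, Sstr2 in 5 cells, Penk mainly in cells with less Sst, and Dlk1 and Pcsk2 are dark in most cells.

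The Sst cells did not stand apart in depth. Their reads ran from 3983244 to 11656457 (median 6303522), beside a median of 6319546 in the other cells, and their detected genes had medians of 4778 and 4430. The number of genes at 100 CPM had medians of 2311.5 and 2316. Microglia markers together reached 100 CPM in 10 of 24 Sst cells (41.7%) and 101 of the others (37.0%), with sums of 0 to 5585 CPM (median 5.94) and 0 to 27777 CPM (median 14.5); 9 of the 10 measured markers had a lower share in Sst cells, and Tmem119 had no read there. Astrocyte markers together reached 100 CPM in 19 of 24 (79.2%) and 152 of the others (55.7%), with sums of 0 to 1193 CPM (median 332.8) and 0 to 12982 CPM (median 164). This came mainly from Aldoc (14 of 24 and 105 of the others), while Aqp4, Gja1, Slc1a3, Slc1a2 and Aldh1l1 were at 100 CPM in 0 of 24 cells and Gja1 had no read there. The part of these RNAs in the Sst results was not tested.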

How the data were processed

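The authors deposited raw read counts for each gene symbol and cell in 1 table, with a table of normalized signal and its logarithm. The main results used the counts. The signal served in repeats of the share differences, and its logarithm was not used. Per the submitters' processing notes, STAR, DESeq2 and the build GRCm38.p4 were used, with no version given. In every column, the authors' signal was the count over a single factor for that cell (relative tolerance 1e-06). Libraries were made with a Nextera XT kit, per the labels' protocols.

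From the counts, CPM per cell, shares of cells at 100 CPM (and 10 and 1000 CPM), pooled CPM and log2 ratios with 1 CPM added were computed with Python 3.11.15, numpy 2.4.6, pandas 2.3.3 and scipy 1.17.1, and plots with matplotlib 3.10.9. Shares have Clopper-Pearson 95% intervals, pooled CPM exact Poisson intervals, and differences of shares intervals built from both shares' bounds. A share of 0 is said to allow 3 cells of the total, a limit that lies below the upper bound of the exact interval. The 3 contrasts used active and silent cells; each was repeated in the 4 subsets by the other labels. Pooled ratios count genes with at least 5 CPM in 1 group; lists count genes at 100 CPM in at least 10 cells. Depth was 3187057 to 25535298 reads per cell. No cell was filtered out and no doublet caller was run, since each library came from 1 pipette. Cells are not replicates, so no p-value was computed; the scripts were tested on simulated data.

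The members, the 19 gene lists and the tests were chosen with earlier results of these data known. Genes found with Sst were named by this rule: the 12 highest phi among genes at 100 CPM in at least 10 cells, with a higher share in Sst cells by day, by night and in the lower and higher cell numbers, without predicted genes. For each list and contrast, up to 4 genes with the largest ratio among those with at least 20 CPM could be named; genes named from the lists by their share in Sst cells were chosen after their values were seen. Alternatives are given in the closing section.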

Additional observations from a re-analysis of the deposited data

Results flagged for a closer look

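Among the 7 day depolarized cFOS- cells, 1 cell (S387) had 370.5 CPM of Sst and the next had 3.03 CPM. On the log2 scale with 1 CPM added, the highest value stood apart by a gap of 0.764 of the group's whole range. Dixon's limit for 7 values is 0.568. This was the only group of 4 to 10 cells, and of the 5 genes checked in it only Sst passed the limit on that scale. Sstr2 came next, with a gap of 0.529 between values under 1 CPM. Chance passes it in about 1 in 20 groups of normally distributed values, a rate that does not hold for a gene without reads in most cells. The cell also had 783.0 CPM of Gad1, 10.3 CPM of Vip and 1 read of Sstr2.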

How the results depend on the processing

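No difference in share between labels reversed a called direction. Of 190 repeats of a share difference, 186 moved less than its interval. The 4 that moved more were Sst by firing, at 1.25 points in the lower and 14.7 points in the higher cell numbers (8.13 in all cells), Sstr2 by time at a limit of 1000 CPM, where no cell was left and the difference was 0, and Sstr3 by firing at 10 CPM, 3.03 points (no cell at 100 CPM). Many of the 190 share repeats could hardly move. No cell reached 10 CPM of Sstr4, so its difference was 0 in every repeat. No cell reached 100 CPM of Sstr3, and 1 cell reached it for Sstr1. The count of 186 is therefore no measure of stability for these receptors. Of 90 repeats of a pooled ratio, 20 moved, 4 of them for Sstr2 by firing, from -1.77 to 2.16. The count of genes at a phi of at least 0.2, 39, was 55 at 10 CPM, 5 at 1000 CPM, 93 without cells with microglia markers, 94 without cells carrying Vip or Avp (added after the data were seen), 67 with no minimum number of cells and 12 with the Spearman correlation. Thinning to 4210000 reads left out 30 cells and gave an Sst difference of 9.89 points by firing. Leaving out cells with neither Gad1 nor Gad2 at 100 CPM, also added after the data were seen, gave an Sst difference of 8.45 points by firing. No paired analysis was possible because the cells of different groups share only 1 number (S253 and S253-2). Each receptor value rests on at most 11 cells at 10 CPM.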
